A study of Homo sapiens with 56 samples.

Results

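Mv4;11 cells, an established human acute myeloid leukaemia line of monocytic type with a KMT2A rearrangement, were compared after 3 h in 1 µM CX-5461 and after 3 h in its vehicle, a buffer of citric acid and sodium phosphate. Each group held 3 libraries of polyadenylated RNA, numbered replicates 1 to 3. The genes described were those with a mean of 1 CPM (a read count relative to the library's total) or more in the vehicle or the treated group, which held for 14106 of the 59409 gene symbols of the Mv4;11 table. CPM here are scaled to library sizes adjusted by TMM, a method that takes most genes as unchanged. All 14106 passed the filter on low counts, and the test was run on the 20495 genes that passed it. Just inside the threshold lay AC020978.7 (1.0002 CPM in its higher group) and LINC00653 (1.0003 CPM), and just outside it IRF2-DT (0.9996 CPM) and AP000866.1 (0.9995 CPM).

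The same cells were also sampled after 12 h of 1 µM CX-5461 with vehicle libraries of that time, and after 3 h of 1 µM PMR-116, another inhibitor of RNA polymerase I, with vehicle libraries of its own (3 libraries in each of these groups). KG-1, a second established acute myeloid leukaemia line, received 1 µM CX-5461 or its vehicle for 3 h (4 libraries each). The labels put the Mv4;11 libraries in batch 1 and the KG-1 libraries in batch 2, so that cell line and batch cannot be told apart. Nothing in the labels says whether the replicates were separate cultures, so the p-values measure the spread between these libraries, which may be technical.

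RNA polymerase I transcribes the large ribosomal RNA precursor in the nucleolus, and ribosome assembly factors process it together with ribosomal proteins. CX-5461 blocks initiation by RNA polymerase I, and it is also known to trap topoisomerase II on DNA and to bind G-quadruplex structures. When ribosome assembly stalls, free ribosomal proteins can hold back MDM2, the ubiquitin ligase of p53, and p53 then switches on genes of arrest, apoptosis and repair. One of these genes encodes the kinase inhibitor p21, through which the repressor complexes of the RB and DREAM type silence genes of the cell cycle. The ribosomal RNA precursor itself carries no poly(A) tail and was not measured.

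Total counts lay between 30554698 and 40981473 per library, and 27964 to 29621 genes had a count. The correlation of log2 CPM between replicates was 0.985 to 0.987, and each pair of replicates differed by more than sampling noise (chi-square over degrees of freedom of 7.02 or more). Mitochondrially encoded genes took 4.50% to 4.51% of the counts in the vehicle libraries and 4.83% to 4.92% in the treated ones, and the ribosomal RNA MT-RNR1 stood at 259 to 325 CPM against 327 to 397 CPM. RN7SL2, an abundant noncoding RNA, was at 11.1 to 15.7 CPM with vehicle and 5.95 to 7.80 CPM with CX-5461. These shares moved with the groups, and their part in the results below was not tested. The line's own markers were present in all 6 libraries, with FLT3 at 312 to 472 CPM, SPI1 at 224 to 244 CPM, CD33 at 90.7 to 110.2 CPM, LYZ at 1146 to 1484 CPM and HOXA9 at 55.4 to 71.9 CPM, while the mature monocyte marker CD14 was at 0.228 to 0.637 CPM. Of the 16 markers each of erythroid and megakaryocytic, lymphocytic, and fibroblast, endothelial or epithelial cells, 4, 3 and 5 were at 0 in all 6 libraries, among them HBB, PF4, MS4A1, COL3A1 and KRT5. Their summed levels overlapped between the groups for the first and second list (33.9 to 40.7 CPM with vehicle and 34.1 to 38.01 CPM with CX-5461, then 200.7 to 251 against 204 to 246 CPM, most of it CD4). The third list summed to 79.1 to 83.7 CPM with vehicle and 86.3 to 93.3 CPM with CX-5461, most of it PECAM1, which leukaemic cells also express, and 0 of its 7 tested genes were called (median log2 difference 0.25).

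CX-5461 changed the level of 2255 of the 14106 genes within 3 h, at an adjusted p under 0.05 in edgeR's quasi-likelihood test. Of these, 932 were higher (6.61% of the genes described) and 1323 were lower (9.38%). Over all 20495 genes tested, 2390 were called (11.7%), 1036 higher (5.05%) and 1354 lower (6.61%). The rises were fewer than the falls, but not with no filter on low counts (1295 against 1286 over all genes), and larger in the median. The median log2 difference was 0.51 among the genes called higher and -0.40 among those called lower, and at least a 2-fold change was reached by 198 rises (1.4%) against 57 falls (0.404%). The median over all 14106 genes was -0.01. In 4803 genes (34.05%) no treated library overlapped a vehicle library, against 28.1% of all genes tested. Of the protein-coding genes, 781 were higher, 1201 lower and 9919 not called, and of the noncoding genes 117 were higher, 109 lower and 1508 not called. Without treated replicate 3, the number called over all genes fell to 1573 (718 higher and 855 lower).

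**Figure D1:**
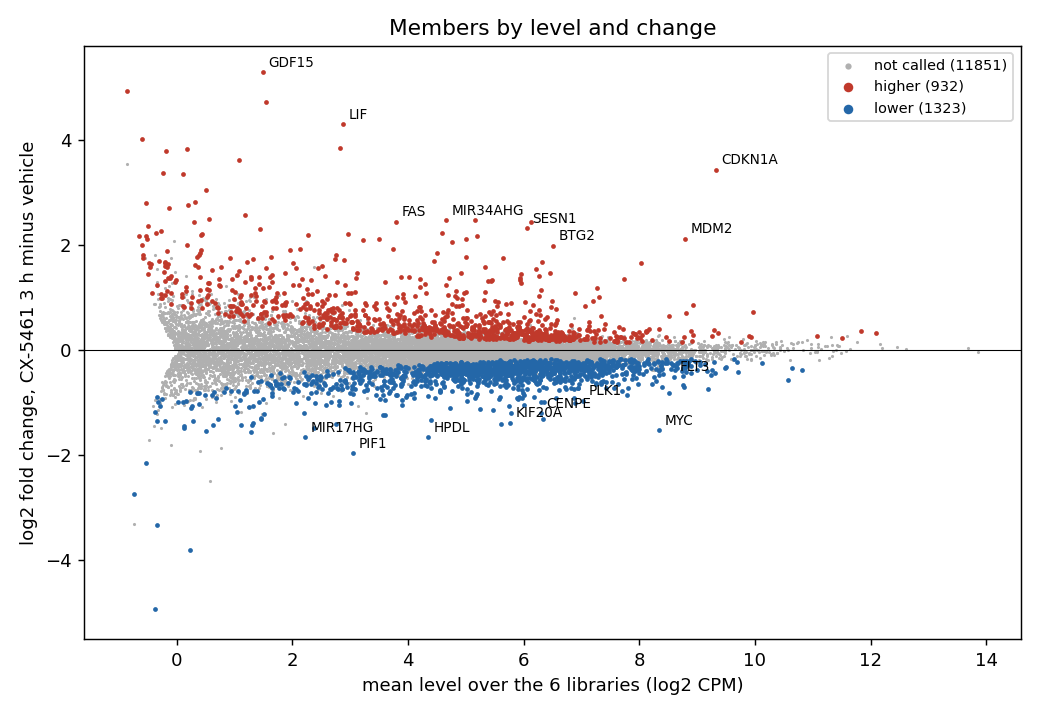
Log2 difference between CX-5461 and vehicle (vertical axis) against the mean level over the 6 libraries in log2 CPM (horizontal axis) for the 14106 genes, with the 932 genes called higher in red, the 1323 called lower in blue and the others in grey. Of the genes called, 198 rises and 57 falls are at least 2-fold, CDKN1A and MDM2 stand out among the abundant genes, and 2 genes lie below the range drawn.

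Genes that p53 switches on rose together. Over the p53 lists together, 65 of 119 tested genes rose and 2 fell, with a median log2 difference of 0.70, beside 5.05% and 6.61% of all genes tested and a median of -0.00. Of the 198 genes at least 2-fold higher, 39 belonged to these lists. Among the arrest genes, 11 of 14 rose and 0 fell (median 1.11). CDKN1A, which encodes p21, stood at 99.03, 104 and 122 CPM with vehicle and 1170.1, 1089 and 1268 CPM with CX-5461, a log2 difference of 3.44 ± 0.10 (SE; adjusted p = 2.72e-17; n = 3 libraries per group, here and for the values that follow). Values are in the order of replicates 1 to 3, and no treated library of CDKN1A came near a vehicle library. TP53INP1, a stress-induced partner of p53, was at 10.3, 9.56 and 12.7 CPM with vehicle and 60.3, 52.2 and 68.1 CPM with CX-5461 (2.48 ± 0.12, adjusted p = 3.64e-13). GADD45A, a stress sensor that inhibits the mitotic kinase CDK1, was at 8.88, 7.73 and 8.67 CPM with vehicle and 42.2, 35.6 and 42.1 CPM with CX-5461 (2.24 ± 0.11, adjusted p = 1.03e-12). BTG2, an antiproliferative gene, was at 33.5, 38.4 and 37.3 CPM with vehicle and 143, 136 and 157 CPM with CX-5461 (1.99 ± 0.09, adjusted p = 8.71e-14). All 3 were separated between the groups. PLK2 (2.18 ± 0.12), the repressor E2F7 (1.38 ± 0.12), TOB1 (1.38 ± 0.13) and PLK3 (0.84 ± 0.09) rose as well. The other 3 arrest genes were not called, CCNG2 (-0.03), CABLES1 (0.03) and ZNF385A (0.20).

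The genes through which p53 limits itself rose too. Of 14 tested, 9 rose and 1 fell (median 0.67). MDM2, the ubiquitin ligase that degrades p53, was at 148, 159 and 189.8 CPM with vehicle and 758, 646 and 769 CPM with CX-5461 (2.13 ± 0.12, adjusted p = 4.61e-12). The groups stood far apart. PPM1D, the phosphatase that turns off the damage kinases, was at 35.5, 33.7 and 35.1 CPM with vehicle and 91.6, 80.9 and 92.8 CPM with CX-5461 (1.35 ± 0.07, adjusted p = 6.75e-13), and PHLDA3, an inhibitor of AKT, at 34.3, 38.3 and 40.6 CPM with vehicle and 114, 120.2 and 130.4 CPM with CX-5461 (1.69 ± 0.09, adjusted p = 2.84e-12). MDM4, the partner of MDM2 that holds back p53, was the member that fell, from 69.8, 56.7 and 69.6 CPM to 52.7, 36.3 and 47.4 CPM (-0.52 ± 0.17, adjusted p = 0.0398). CCNG1 rose by 0.50 ± 0.11 on the log2 scale and ZMAT3 by 1.10 ± 0.10. MDM4 was not called without vehicle replicate 1 or 3 or treated replicate 2 or 3 or with library totals (adjusted p up to 0.222). The feedback genes counted 0 falls without vehicle replicate 1 or 3 or treated replicate 2 or 3.

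Several apoptosis genes rose. Of 17 p53 apoptosis genes 7 rose and 0 fell (median 0.17), while of 13 death receptor genes and ligands 7 rose and 0 fell (median 0.89). BBC3, which encodes the BH3-only protein PUMA, was at 13.2, 11.2 and 11.7 CPM with vehicle and 56.2, 46.3 and 54.5 CPM with CX-5461 (2.12 ± 0.11, adjusted p = 8.39e-13). BAX, the pore former downstream of it, was at 141, 151 and 139.6 CPM with vehicle and 201, 187 and 188 CPM with CX-5461 (0.42 ± 0.06, adjusted p = 7.68e-05). PMAIP1, which encodes NOXA, was at 22.1, 19.4 and 19.3 CPM with vehicle and 28.4, 25.1 and 24.3 CPM with CX-5461 and was not called (0.36 ± 0.15, adjusted p = 0.124, or 0.00825 with the replicate numbers as a block). APAF1 (-0.11), BAK1 (0.15) and PERP (-0.39) were not called either. BOK, a BCL2 relative, was at 0.152, 0.150 and 0.134 CPM with vehicle and 1.98, 0.329 and 2.37 CPM with CX-5461 (3.38 ± 0.70, adjusted p = 0.00174). The size of its fold change rests on few counts. Of the 17 BCL2 family regulators tested 4 rose and 0 fell (median 0.15). FAS, the receptor of FAS ligand, was at 4.12, 3.95 and 4.70 CPM with vehicle and 24.6, 22.1 and 23.3 CPM with CX-5461 (2.46 ± 0.17, adjusted p = 1.59e-10). All 4 receptors of the ligand TRAIL on the list rose, TNFRSF10B by 1.66 ± 0.06, TNFRSF10C by 1.93 ± 0.14, TNFRSF10D by 1.46 ± 0.08 and TNFRSF10A by 0.89 ± 0.10, and the ligand TNFSF10 was not called (0.42 ± 0.21, adjusted p = 0.226). The adaptors and initiator caspases did not pass the test, with FADD at 0.07 and CASP8 at -0.35. CASP8 passed with DESeq2 (adjusted p = 0.0358). The death receptors and ligands counted 1 fall without treated replicate 1. The BCL2 family counted 1 fall without treated replicate 1.

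Of 20 metabolic and redox targets 9 rose and 0 fell (median 0.50), and of 11 repair targets 6 rose and 1 fell (median 0.38). The sestrins, which restrain the growth kinase mTORC1, were among them. SESN1 was at 22.3, 19.4 and 24.8 CPM with vehicle and 120.1, 97.9 and 116 CPM with CX-5461 (2.33 ± 0.10, adjusted p = 8.71e-14) and SESN2 at 18.9, 22.7 and 23.7 CPM with vehicle and 105, 122 and 129 CPM with CX-5461 (2.45 ± 0.12, adjusted p = 5.73e-13). Neither gene had a treated library within its vehicle range. TIGAR, a regulator of glycolysis, rose by 1.59 ± 0.12, while GLS2 (-0.19) and CPT1C (0.89) were not called. Among repair genes, POLH, the polymerase that copies past ultraviolet lesions, was at 42.3, 49.2 and 47.1 CPM with vehicle and 139, 119 and 129.9 CPM with CX-5461 (1.48 ± 0.08, adjusted p = 7.15e-12). RRM2B, the p53-induced ribonucleotide reductase subunit, was at 85.7, 101 and 95.7 CPM with vehicle and 223, 210.0 and 213 CPM with CX-5461 (1.19 ± 0.07, adjusted p = 7.15e-12), and XPC and DDB2, which recognise damage in nucleotide excision repair, rose by 1.10 ± 0.07 and 0.94 ± 0.07. APEX1, the abasic site endonuclease and also on the MYC target list, fell by 0.23 on the log2 scale (adjusted p = 0.0271). The repair genes counted 0 falls without vehicle replicate 2 or 3 or treated replicate 1 or 3.

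GDF15, with the largest rise of the 14106 genes on the log2 scale, is one of the secreted and surface proteins on the p53 lists. Of 22 tested 12 rose and 0 fell (median 0.86). This stress-induced cytokine of the TGF-beta family was at 0.0606, 0.0899 and 0.269 CPM with vehicle and 5.16, 5.11 and 6.22 CPM with CX-5461 (5.30 ± 0.40, adjusted p = 1.53e-09). LIF, a cytokine of the interleukin-6 family, was at 1.12, 0.449 and 0.537 CPM with vehicle and 16.6, 13.7 and 11.8 CPM with CX-5461 (4.31 ± 0.28, adjusted p = 5.87e-11), and NECTIN4, an adhesion protein, at 0.788, 0.719 and 1.21 CPM with vehicle and 12.4, 11.3 and 15.8 CPM with CX-5461 (3.87 ± 0.26, adjusted p = 1.59e-10). In each of the 3 the vehicle libraries held no more than 1.21 CPM, so the size of the fold change rests on few counts. KITLG, the ligand of the receptor KIT, was at 0.303, 0.330 and 0.269 CPM with vehicle and 3.41, 1.72 and 2.50 CPM with CX-5461 (3.06 ± 0.40, adjusted p = 7.38e-06). BAIAP3, a regulator of vesicle release outside the lists, was at 0.0910, 0.300 and 0.235 CPM with vehicle and 3.00, 9.09 and 4.81 CPM with CX-5461 (4.74 ± 0.63, adjusted p = 1.08e-05). The vehicle libraries held no more than 0.330 CPM of KITLG or BAIAP3, so the size of these fold changes rests on few counts as well. PGF, a growth factor of the VEGF family, was at 4.25, 4.52 and 3.83 CPM with vehicle and 18.8, 15.8 and 20.3 CPM with CX-5461 (2.12 ± 0.13, adjusted p = 4.28e-11).

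Noncoding targets moved in the same direction, with 5 of 9 higher, 0 lower and a median of 1.32. MIR34AHG, the host gene of miR-34a, was at 8.01, 6.20 and 8.83 CPM with vehicle and 45.5, 40.1 and 42.9 CPM with CX-5461 (2.48 ± 0.14, adjusted p = 3.57e-12). LNCTAM34A, read from the opposite strand of the same locus, was at 1.79, 1.23 and 2.18 CPM with vehicle and 7.69, 7.14 and 8.87 CPM with CX-5461 (2.19 ± 0.20, adjusted p = 5.24e-08). The strand setting of the counting is not given, so reads of these 2 genes cannot be told apart. DINOL, a noncoding gene beside CDKN1A, was at 0, 0 and 0.0672 CPM with vehicle and 0.417, 0.430 and 0.431 CPM with CX-5461 (4.13 ± 0.82, adjusted p = 0.00131), and PURPL at 26.5, 19.1 and 28.9 CPM with vehicle and 70.2, 49.0 and 66.2 CPM with CX-5461 (1.32 ± 0.12, adjusted p = 6.48e-08). DINOL was tested but lay under the 1 CPM set for the genes described, so the size of its change rests on few counts. NEAT1, the scaffold of nuclear paraspeckles, rose by 1.01 ± 0.09, and PINCR (1.92 ± 0.92, adjusted p = 0.201) and MIR22HG (0.57) were not called. The promoters of LNCTAM34A and PURPL are shown because they were the 2 among the 635 genes called higher with a promoter in the RefSeq table (GRCh38.p14) that held a pair of p53 half-sites, which is the sequence a p53 tetramer binds. The 250 bases before the start are printed 5′ to 3′ on the gene's own strand, with the paired half-sites in capitals, for LNCTAM34A at chr1:9181954-9182203 (plus strand) and for PURPL at chr5:27472042-27472291 (plus strand).
LNCTAM34A: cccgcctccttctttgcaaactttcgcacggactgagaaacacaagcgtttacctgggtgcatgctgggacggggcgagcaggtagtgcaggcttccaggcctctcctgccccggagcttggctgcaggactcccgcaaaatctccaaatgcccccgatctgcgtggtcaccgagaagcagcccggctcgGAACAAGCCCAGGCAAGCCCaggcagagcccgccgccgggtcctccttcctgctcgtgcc
PURPL: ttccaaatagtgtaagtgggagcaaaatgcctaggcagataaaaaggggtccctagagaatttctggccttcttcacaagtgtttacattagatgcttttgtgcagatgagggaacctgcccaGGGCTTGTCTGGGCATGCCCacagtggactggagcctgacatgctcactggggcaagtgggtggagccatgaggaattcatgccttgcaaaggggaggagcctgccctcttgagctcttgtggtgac
The pair was searched on both strands as 2 half-sites of 10 bases with a spacer of up to 13 bases and at most 1 mismatch outside the cores, from 250 bases before to 50 after the start. It was found in 72 of all 27305 promoters (0.264%) and in 17 of the 9557 of protein-coding genes described (0.178%). Of the latter, 4 were among the 985 that fell (0.406%) and 0 among the 610 that rose. Both promoters shown are thus of noncoding genes. Fewer than 80% of the genes called higher had a promoter in the table, so no percentage over them is given. No match in this window says nothing of sites elsewhere, such as within a first intron. The mature miR-34a-5p, whose host gene rose here, is printed with its seed, bases 2 to 8, in capitals (RefSeq GRCh38.p14, chr1:9151735-9151756, minus strand). Mature miRNAs were not measured.
hsa-miR-34a-5p: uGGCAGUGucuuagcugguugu

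**Figure D2:**
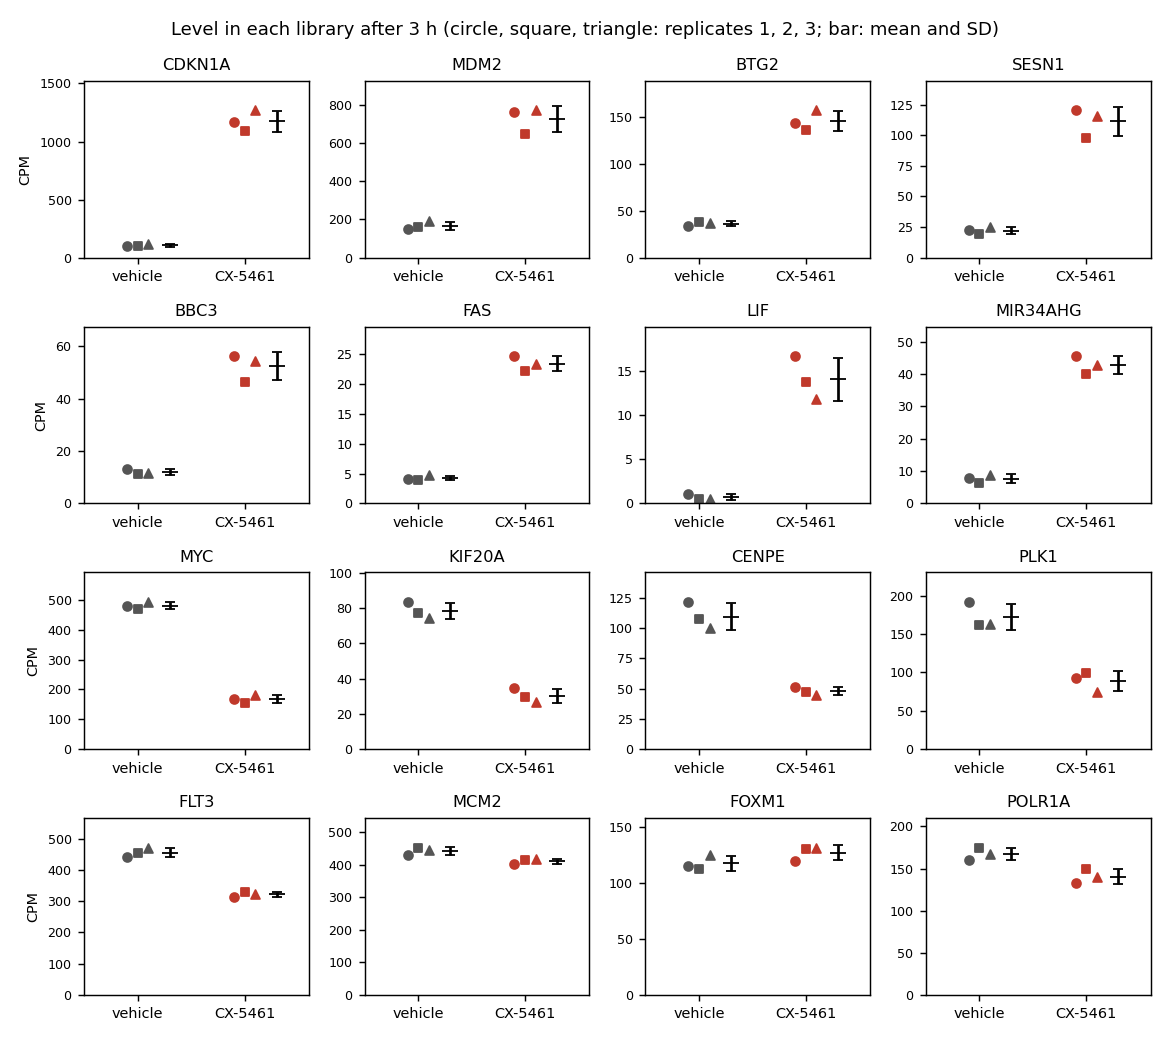
CPM (vertical axes, each starting at 0) of 16 genes in each of the 3 vehicle and 3 CX-5461 libraries, 1 panel per gene, with replicates 1 to 3 as circle, square and triangle and a bar for the mean and SD of each group. The treated points of CDKN1A, MDM2, FAS and BBC3 lie above all vehicle points, and those of MYC, KIF20A, CENPE and FLT3 below them.

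Genes of mitosis fell together. In RNA from whole cultures, fewer cells in mitosis and less of these RNAs per cell cannot be told apart. Of 135 tested over the mitosis lists 79 fell and 1 rose (median -0.36), beside 6.61% and 5.05% of all genes tested. The mitosis lists are the 6 given by role below and that of the DREAM, MuvB and FOXM1 factors, which regulate such genes. Of the 57 genes at least 2-fold lower, 4 were on these lists. By role, 26 of 28 spindle and cytokinesis genes fell (median -0.58), 12 of 13 kinesins (-0.55), 11 of 15 kinases and their regulators (-0.52) and 12 of 17 cyclins, CDC25 phosphatases and APC/C genes (-0.46). The structural parts of the chromosome counted 8 of 14 condensin and chromosome structure genes (-0.20) and 10 of 33 kinetochore and centromere genes (-0.12) lower, and no difference between the lists was tested. None of these 6 lists held a gene called higher by the test used here. The condensin list counted 5 falls without treated replicate 3.

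KIF20A, the kinesin that carries the chromosomal passenger complex to the midzone, was at 83.4, 77.2 and 74.6 CPM with vehicle and 34.6, 29.4 and 26.6 CPM with CX-5461 (-1.37 ± 0.09, adjusted p = 5.33e-11). CENPE, the kinetochore kinesin that aligns chromosomes, was at 121, 107 and 99.6 CPM with vehicle and 51.6, 46.9 and 44.9 CPM with CX-5461 (-1.19 ± 0.12, adjusted p = 2.76e-07), and KIF23, which bundles midzone microtubules, at 77.7, 72.1 and 66.8 CPM with vehicle and 33.8, 35.5 and 34.96 CPM with CX-5461 (-1.05 ± 0.08, adjusted p = 1.96e-09). The 3 vehicle libraries of each of these kinesins lay above its 3 treated libraries. PSRC1, a spindle protein, was at 17.4, 15.7 and 17.7 CPM with vehicle and 6.30, 7.21 and 8.32 CPM with CX-5461 (-1.22 ± 0.12, adjusted p = 1.54e-07), and ASPM, a spindle pole protein, at 176, 138 and 145 CPM with vehicle and 88.3, 81.7 and 76.6 CPM with CX-5461 (-0.90 ± 0.11, adjusted p = 1.99e-06). PLK1, the kinase that drives mitotic entry, was at 192, 161 and 163 CPM with vehicle and 92.7, 99.6 and 74.5 CPM with CX-5461 (-0.95 ± 0.10, adjusted p = 3.66e-07). CCNF, which encodes cyclin F, was at 107, 106 and 114 CPM with vehicle and 51.8, 55.9 and 56.8 CPM with CX-5461 (-0.99 ± 0.07, adjusted p = 5.92e-10), and UBE2C, the ubiquitin-conjugating enzyme of the APC/C, at 109, 105 and 100.4 CPM with vehicle and 50.5, 56.9 and 51.2 CPM with CX-5461 (-0.99 ± 0.09, adjusted p = 2.8e-08). Cyclin B1 (CCNB1, -0.71 ± 0.09), CDC20 (-0.73 ± 0.08), AURKA (-0.62 ± 0.06), BUB1 (-0.64 ± 0.07) and CDK1 (-0.52 ± 0.08) fell by less than 2-fold.

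HJURP, the chaperone that loads the centromeric histone, was at 86.7, 80.1 and 81.6 CPM with vehicle and 46.5, 44.9 and 46.2 CPM with CX-5461 (-0.85 ± 0.09, adjusted p = 2.17e-07), and its cargo CENPA at 47.6, 43.3 and 38.999 CPM with vehicle and 27.2, 23.3 and 24.6 CPM with CX-5461 (-0.79 ± 0.10, adjusted p = 2.76e-06). MKI67, the proliferation marker that coats mitotic chromosomes, was at 756, 709 and 728 CPM with vehicle and 393, 444 and 489.7 CPM with CX-5461 (-0.72 ± 0.08, adjusted p = 9.41e-07). TOP2A, the topoisomerase of mitotic chromosomes and one of the proteins CX-5461 is known to trap, was at 756, 712 and 707 CPM with vehicle and 560.1, 531 and 528 CPM with CX-5461 (-0.43 ± 0.06, adjusted p = 5.14e-05), while the related TOP2B was not called (-0.16 ± 0.07, adjusted p = 0.143). The factors that turn these genes on and off were called at near the share of all genes. Of them 6.25% were higher and 6.25% lower, beside 5.05% and 6.61% of all genes tested. Of 16 DREAM, MuvB and FOXM1 genes, E2F5 fell (-0.64 ± 0.18), MYBL1 rose (0.76 ± 0.21) and the others were not called (median 0.07). FOXM1, the activator of late cell cycle genes, was at 116, 112 and 125 CPM with vehicle and 119.9, 130.4 and 132 CPM with CX-5461 (0.11 ± 0.06, adjusted p = 0.266), and LIN54, the subunit that reads the CHR element, at -0.09. E2F5 was not called without vehicle replicate 2 or treated replicate 1 or 3, with no filter on low counts or in a fit of the 6 libraries alone (adjusted p up to 0.129). MYBL1 was not called without vehicle replicate 1 or treated replicate 2 or 3 or in a fit of the 6 libraries alone (adjusted p up to 0.104).

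The CHR (cell cycle genes homology region) and the CCAAT box are the elements by which such genes are known to be controlled, so the promoters of 4 genes that fell and held both within 120 bases before the start are shown. They are CCNF at chr16:2429327-2429446 (plus strand), KIF23 at chr15:69414229-69414348 (plus strand), PSRC1 at chr1:109283146-109283265 (minus strand) and HJURP at chr2:233854536-233854655 (minus strand), from RefSeq GRCh38.p14. Each is printed 5′ to 3′ on the gene's own strand up to the base before the start, with CHR and CCAAT matches on either strand in capitals.
CCNF: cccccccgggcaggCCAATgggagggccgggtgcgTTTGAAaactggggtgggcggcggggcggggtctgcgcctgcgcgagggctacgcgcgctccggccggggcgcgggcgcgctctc
KIF23: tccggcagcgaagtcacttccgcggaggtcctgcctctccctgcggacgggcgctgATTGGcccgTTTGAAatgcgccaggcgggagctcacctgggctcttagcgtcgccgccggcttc
PSRC1: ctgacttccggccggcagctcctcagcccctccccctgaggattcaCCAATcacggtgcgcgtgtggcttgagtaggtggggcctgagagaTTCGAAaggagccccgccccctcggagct
HJURP: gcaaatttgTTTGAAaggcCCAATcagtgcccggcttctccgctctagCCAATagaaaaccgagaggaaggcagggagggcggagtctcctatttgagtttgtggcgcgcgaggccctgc
The CHR begins 85 bases before the start in CCNF, 55 in KIF23, 29 in PSRC1 and 111 in HJURP. In CCNF, KIF23 and PSRC1 a CCAAT box lies upstream of the CHR, and in HJURP a pair of CCAAT boxes lies downstream of it. At least 25 of the mitosis genes that fell, the DREAM, MuvB and FOXM1 factors included, had both within the 120 bases. No share of other promoters is given for that window. From 250 bases before to 50 after the start, both were in 36 of 65 promoters of mitosis genes that fell (55.4%). They were in 9 of 45 of mitosis genes not called (20%) and in 6.58% of all 27305 promoters.

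The CHR was searched as TTTGAA or TTCGAA, the CCAAT box as CCAAT and an E2F-like site as TTTCCCGC, TTTGGCGC or TTTCGCGC, on both strands, from 250 bases before to 50 after the start. The CHR was present in 47 of 65 promoters of mitosis genes that fell (72.3%), in 18 of 45 of mitosis genes not called (40%) and in 3 of 47 of replication genes (6.38%). The mitosis sets include the DREAM, MuvB and FOXM1 factors, most of which were not called. The sets without these factors were not counted. All 27305 promoters held it in 16.6% of cases, the 9557 promoters of protein-coding genes described here in 11.3%, and the 985 of those that fell in 19.7%. The CCAAT box differed less between these sets, at 66.2%, 55.6% and 55.3%, beside 35.7% of all promoters and 36.9% of the 9557. The E2F-like site had the reverse order, at 4.62% of the mitosis genes that fell, 17.8% of those not called and 46.8% of replication genes. It was in 2.79% of all promoters and 4.86% of the 9557, so the mitosis genes that fell were near the latter share. A match is a description of the letters only.

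**Figure D3:**
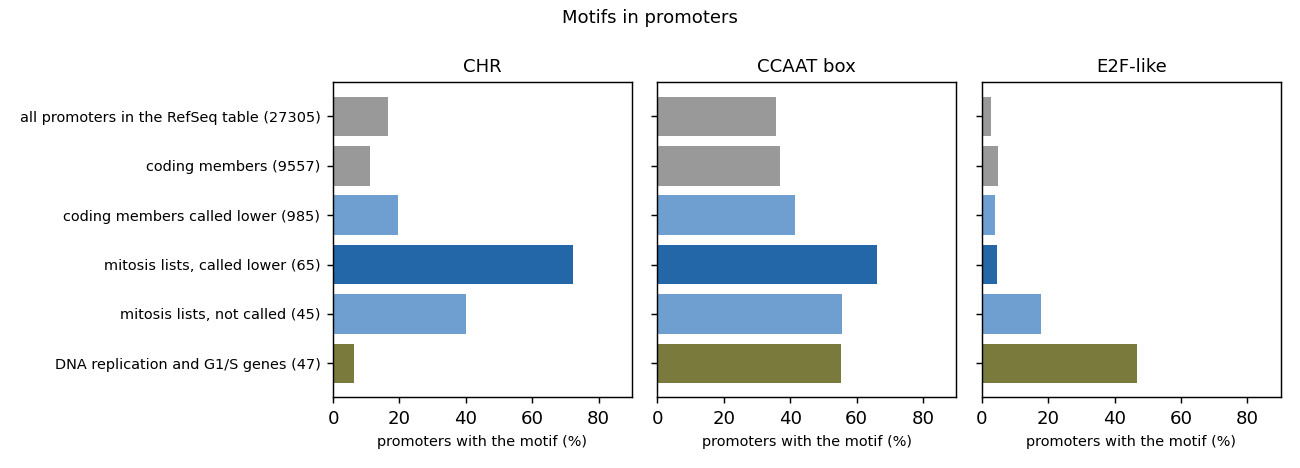
Percent of promoters (horizontal axes, starting at 0) that hold a CHR, a CCAAT box or an E2F-like site, 1 panel per motif and 1 bar per gene set, with the number of promoters in each set in brackets. The CHR bar is longest for the mitosis genes that fell (72.3%) and the E2F-like bar for the replication genes (46.8%).

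Genes of DNA replication and of the step from G1 to S phase went both ways at 3 h. Of 58 tested 4 rose (6.90%) and 6 fell (10.3%), beside 5.05% and 6.61% of all genes tested (median -0.01). All 58 are among the genes described, of which 6.61% rose and 9.38% fell, so both shares are near that background. PCNA, the sliding clamp of replication and itself a p53 target, was at 315, 361 and 339.7 CPM with vehicle and 562, 525 and 574 CPM with CX-5461 (0.71 ± 0.06, adjusted p = 1.74e-08). DBF4, the activator of the replication kinase CDC7, was at 63.9, 66.4 and 60.3 CPM with vehicle and 41.5, 43.4 and 36.9 CPM with CX-5461 (-0.64 ± 0.08, adjusted p = 5.21e-06), and CDC7 changed by -0.37 ± 0.10. MCM4, a subunit of the replicative helicase, was at 864, 1022 and 976 CPM with vehicle and 599, 823 and 745 CPM with CX-5461 (-0.40 ± 0.10, adjusted p = 0.00782). None of 33 replication-dependent histone genes was called by edgeR's quasi-likelihood test, and 0 were higher and 0 lower at an unadjusted p under 0.05 (median -0.02). Most histone mRNAs lack the poly(A) tail that these libraries select. CDC7 was not called without vehicle replicate 1 or 2 or treated replicate 2 (adjusted p up to 0.0587). MCM4 was not called without vehicle replicate 2 or treated replicate 1 (adjusted p up to 0.0786). The replication list counted 1 fall without vehicle replicate 2.

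**Figure D4:**
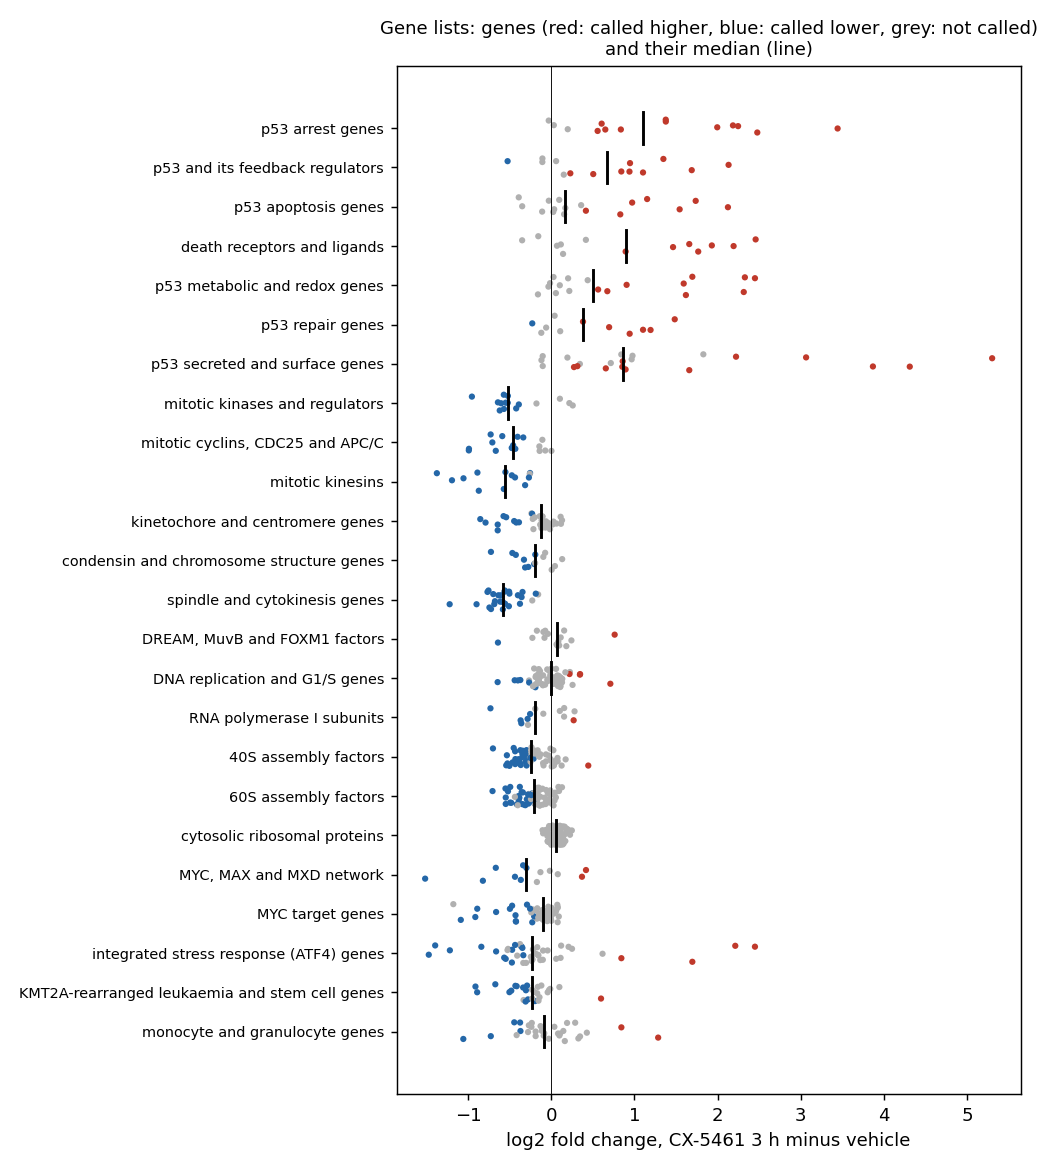
Log2 difference between CX-5461 and vehicle (horizontal axis) of genes of 24 lists, 1 row per list. Only genes with a mean of 1 CPM or more in either group are drawn. Genes called higher are in red, called lower in blue and not called in grey, and a black line marks the median of the genes drawn. The medians of the p53 lists drawn lie to the right of 0, up to 1.11. Those of the 6 lists of mitosis genes by role lie to the left, down to -0.58. The median of the DREAM, MuvB and FOXM1 factors lies at 0.07.

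Of 41 checkpoint and homologous recombination genes 9 fell and 1 rose (median -0.12). PIF1, a helicase that unwinds G-quadruplex DNA, had the largest fall of the protein-coding genes named by rule, at 16.9, 10.2 and 12.7 CPM with vehicle and 4.48, 3.34 and 2.37 CPM with CX-5461 (-1.95 ± 0.19, adjusted p = 1.06e-07). H2AX, the histone variant phosphorylated at strand breaks, was at 123, 118 and 127 CPM with vehicle and 70.1, 71.2 and 76.2 CPM with CX-5461 (-0.76 ± 0.14, adjusted p = 0.000407), and RAD51C, a recombinase paralogue, rose by 0.67 ± 0.09. ATM (-0.07), CHEK1 (-0.06) and CHEK2 (-0.19), which encode kinases of the damage response, were not called. Of 23 topoisomerase and strand-break repair genes 3 rose, among them TOP1 (0.23 ± 0.06), and 4 fell (median -0.05). TOP1 was not called without vehicle replicate 3 (adjusted p = 0.0508). The checkpoint list counted 3 to 5 falls without vehicle replicate 2 or treated replicate 2 or 3. The topoisomerase list counted 1 rise without vehicle replicate 3. The topoisomerase list counted 2 falls without vehicle replicate 1 or 2 or treated replicate 2 or 3.

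Some mRNAs of the enzyme that CX-5461 inhibits fell by small amounts. Of 13 subunit genes of RNA polymerase I 5 fell (38.5%) and 1 rose (7.69%), with a median of -0.19. Of 12 initiation and termination factors 4 fell (33.3%, median -0.09). Beside these, 6.61% of all genes tested fell and 5.05% rose. POLR1A, the largest subunit, was at 160.5, 175 and 168 CPM with vehicle and 133, 149 and 139 CPM with CX-5461 (-0.25 ± 0.08, adjusted p = 0.04), and POLR1B at 108, 126 and 113 CPM with vehicle and 91.3, 97.7 and 80.7 CPM with CX-5461 (-0.36 ± 0.11, adjusted p = 0.0353). RRN3, the initiation factor that ties the polymerase to growth signals, was at 88.8, 90.1 and 83.6 CPM with vehicle and 75.1, 72.5 and 66.8 CPM with CX-5461 (-0.29 ± 0.07, adjusted p = 0.00527). POLR1G, a subunit specific to this polymerase, fell by 0.73 on the log2 scale (SE 0.13, adjusted p = 0.000372). UBTF, which binds the promoter of the ribosomal RNA genes, was not called (0.03 ± 0.05, adjusted p = 0.789), and neither were the nucleolar proteins NPM1 (0.06) and NCL (-0.04). Of 21 genes of RNA polymerase III 1 fell (4.76%, near the share of all genes tested) and 0 rose (median 0.00). POLR1A was not called without any vehicle replicate or treated replicate 1 or 3 (adjusted p up to 0.178). POLR1B was not called without vehicle replicate 2 or 3 or treated replicate 1 or 3 (adjusted p up to 0.182). RRN3 was not called without treated replicate 3 (adjusted p = 0.0561). The RNA polymerase I subunits counted 2 to 3 falls without vehicle replicate 2 or 3 or treated replicate 1 or 3. The RNA polymerase I subunits counted 0 to 2 rises without any vehicle replicate or treated replicate 2 or 3. The initiation and termination factors counted 1 fall without treated replicate 3. With the replicate block, the RNA polymerase III genes counted 3 falls. The RNA polymerase III genes counted 0 falls without vehicle replicate 1 or 2 or treated replicate 2 or 3.

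Ribosome assembly factors fell together by small amounts. Of 63 factors of the small subunit 30 fell and 1 rose (median -0.24), and of 64 of the large subunit 26 fell and 0 rose (median -0.21). The falls made up 47.6% and 40.6% of these lists, beside 6.61% of all genes tested. MDN1, the giant ATPase that releases assembly factors from the large subunit, was at 205, 219 and 215 CPM with vehicle and 125, 135 and 132 CPM with CX-5461 (-0.71 ± 0.09, adjusted p = 3.61e-06). KRI1, a small-subunit factor, was at 132, 126 and 134 CPM with vehicle and 81.6, 77.9 and 81.6 CPM with CX-5461 (-0.70 ± 0.07, adjusted p = 5.15e-08), and GNL3, nucleostemin, at 282, 293 and 261 CPM with vehicle and 203, 192 and 175 CPM with CX-5461 (-0.55 ± 0.09, adjusted p = 0.000273). RIOK3 was the member that rose (0.44 ± 0.08). No such fall was called for the ribosomal protein mRNAs. None of 79 was called by edgeR's quasi-likelihood test and 1, higher, by DESeq2. A fit of the 6 libraries alone called 6 higher, and 18 with the replicate numbers as a block. At an unadjusted p under 0.05, which 24.5% of all genes had, 8 were higher and 0 lower (median 0.06). Of 27 host genes of small nucleolar RNAs 7 fell (median -0.13), led by SNHG4 (-0.90 ± 0.12) and SNHG15 (-0.63 ± 0.10). The small-subunit factors counted 19 falls without treated replicate 3. The large-subunit factors counted 15 falls without vehicle replicate 2 or treated replicate 3.

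MYC, the transcription factor that drives ribosome and growth genes, was at 480.3, 470.4 and 494 CPM with vehicle and 168, 155 and 182 CPM with CX-5461, a log2 difference of -1.52 ± 0.09 (adjusted p = 2.74e-11). Its treated libraries stood far below all vehicle libraries. In its network of 13 tested genes 7 fell and 2 rose (median -0.30), the latter being the antagonists MXD1 (0.42 ± 0.10) and MXD4 (0.37 ± 0.10). Of 52 known targets tested 13 fell (25%, beside 6.61% of all genes tested) and 0 rose (median -0.10). Cyclin D2 (CCND2, -1.09 ± 0.15) and hexokinase 2 (HK2, -0.91 ± 0.10) were among the falls, while ODC1 (-0.08) and CDK4 (-0.04) were not called. MIR17HG, the host gene of the miR-17-92 cluster and a known MYC target, was at 7.46, 6.26 and 7.49 CPM with vehicle and 2.19, 2.33 and 2.22 CPM with CX-5461 (-1.65 ± 0.17, adjusted p = 2.89e-07). A pair of its products are printed to show the seed they share (bases 2 to 8, in capitals), from RefSeq GRCh38.p14 on the plus strand at chr13:91350618-91350640 and chr13:91351072-91351094.
hsa-miR-17-5p: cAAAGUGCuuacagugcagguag
hsa-miR-20a-5p: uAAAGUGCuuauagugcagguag
The files give the host transcript only, and the mature products were not measured.
MXD4 was not called without vehicle replicate 3 (adjusted p = 0.0531). The MYC network counted 1 rise without vehicle replicate 3.

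Stress response genes under ATF4 went both ways. Of 45 tested 13 fell (28.9%) and 4 rose (8.89%), beside 6.61% and 5.05% of all genes tested (median -0.24). The 4 that rose were SESN2 (2.45 ± 0.12), ATF3 (2.21 ± 0.19), DDIT4 (1.70 ± 0.22) and CEBPB (0.84 ± 0.09), of which SESN2 and DDIT4 are also on the p53 lists. ATF3, a stress-induced repressor, was at 2.91, 2.46 and 2.92 CPM with vehicle and 15.7, 13.2 and 9.40 CPM with CX-5461 (2.21 ± 0.19, adjusted p = 1.51e-08). Among the falls, 3 are given here. SLC7A11, the cystine transporter, was at 11.8, 5.93 and 5.14 CPM with vehicle and 3.65, 2.63 and 1.94 CPM with CX-5461 (-1.47 ± 0.38, adjusted p = 0.0106). CHAC1, which degrades glutathione, was at 4.31, 3.92 and 3.70 CPM with vehicle and 1.64, 1.70 and 1.79 CPM with CX-5461 (-1.22 ± 0.19, adjusted p = 7.76e-05), and PYCR3, an enzyme of proline synthesis, at 62.6, 80.8 and 68.6 CPM with vehicle and 27.7, 29.6 and 23.2 CPM with CX-5461 (-1.40 ± 0.11, adjusted p = 4.23e-09). ATF4 mRNA itself was not called (-0.37 ± 0.14, adjusted p = 0.105, or 0.0198 with the replicate numbers as a block). Of 35 genes of the unfolded protein response 10 fell (28.6%) and 0 rose (median -0.12). HERPUD1, a factor of protein disposal at the endoplasmic reticulum, was at 182, 150.1 and 142 CPM with vehicle and 98.4, 65.4 and 73.3 CPM with CX-5461 (-1.002 ± 0.14, adjusted p = 1.41e-05), and XBP1, a transcription factor of this response, at 291, 238 and 258 CPM with vehicle and 178, 128 and 157 CPM with CX-5461 (-0.77 ± 0.13, adjusted p = 0.000157). SLC7A11 was not called without vehicle replicate 1 or treated replicate 3 (adjusted p up to 0.109). The unfolded protein response counted 4 to 6 falls without vehicle replicate 2 or treated replicate 1 or 3.

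FLT3, the receptor kinase that this line is known to depend on, was at 441, 455 and 472 CPM with vehicle and 312, 328 and 325 CPM with CX-5461 (-0.50 ± 0.08, adjusted p = 7.32e-05), with every treated library below every vehicle library. Of 28 genes tied to KMT2A-rearranged leukaemia and stem cells 13 fell (46.4%) and 1 rose (3.57%), with a median of -0.23. PIM1, a kinase gene induced through FLT3 and STAT5, was at 84.4, 79.7 and 82.5 CPM with vehicle and 46.8, 38.7 and 45.7 CPM with CX-5461 (-0.91 ± 0.13, adjusted p = 1.69e-05), and SOX4, a transcription factor of progenitors, at 93.1, 97.4 and 91.0 CPM with vehicle and 48.6, 50.1 and 53.2 CPM with CX-5461 (-0.89 ± 0.09, adjusted p = 2.93e-07). PIM2 was the member that rose (0.60 ± 0.10). MEIS1 (-0.03 ± 0.08, adjusted p = 0.891) and HOXA9 (0.10), defining targets of the KMT2A fusion, were not called. Of 33 monocyte and granulocyte genes 5 fell (15.2%) and 2 rose (6.06%), beside 6.61% and 5.05% of all genes tested (median -0.11). CYBB, the catalytic subunit of the phagocyte oxidase, was at 2.37, 2.76 and 3.06 CPM with vehicle and 1.51, 0.886 and 1.54 CPM with CX-5461 (-1.06 ± 0.33, adjusted p = 0.0372). NCF1, another oxidase subunit, rose by 1.28 ± 0.14, but it has near-identical pseudogenes between which reads can be split. MIR223HG, the host gene of a myeloid miRNA, was at 70.0, 80.02 and 77.9 CPM with vehicle and 33.6, 27.5 and 39.3 CPM with CX-5461 (-1.18 ± 0.14, adjusted p = 2.29e-06). CYBB was not called without any vehicle replicate or any treated replicate (adjusted p up to 0.177). The monocyte list counted 2 to 3 falls without vehicle replicate 2 or 3 or any treated replicate.

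Other response programmes were counted beside the 5.05% of all genes tested that rose and the 6.61% that fell. Of 39 immediate-early genes 4 rose and 3 fell (median 0.05), with IER5 (1.42 ± 0.08) and FOSL1 (1.04 ± 0.08) higher and FOS (0.17) and EGR1 (-0.43) not called. Of 26 NF-kB and cytokine genes 2 rose and 0 fell (median -0.00). Of 42 interferon-stimulated genes 3 rose and 0 fell (median 0.09), and the rises were TRIM22 (0.84 ± 0.07), PML (0.70 ± 0.08) and IRF1 (0.65 ± 0.18), all also known as p53 targets. Of 23 heat shock genes 3 rose and 2 fell (median -0.00), of 28 cholesterol synthesis genes 1 and 1 (-0.09), and of 37 lysosome and autophagy genes 5 and 0 (0.08). Of 13 mitochondrially encoded mRNAs MT-CO2 (0.33 ± 0.09) and MT-ND1 (0.24 ± 0.08) rose and none fell (median 0.07), beside the higher mitochondrial share of the treated libraries given above. IRF1 was not called without vehicle replicate 1 or 3 or treated replicate 1 or 2 (adjusted p up to 0.0745). MT-ND1 was not called without vehicle replicate 1 or 3 or treated replicate 2 or 3 (adjusted p up to 0.19). The immediate-early genes counted 1 fall without vehicle replicate 1 or 2 or treated replicate 3. The NF-kB list counted 1 rise without vehicle replicate 2 or treated replicate 2. With the replicate block, the NF-kB list counted 1 fall. The NF-kB list counted 1 fall without treated replicate 1. The interferon-stimulated genes counted 1 fall without vehicle replicate 1. The heat shock genes counted 0 to 1 falls without vehicle replicate 2 or 3 or treated replicate 1 or 2. With the replicate block, the cholesterol genes counted 2 rises. The cholesterol genes counted 2 rises without treated replicate 2. With the replicate block, the cholesterol genes counted 3 falls. The cholesterol genes counted 0 to 2 falls without vehicle replicate 1 or 3 or any treated replicate. The lysosome list counted 1 to 3 rises without vehicle replicate 1 or 3 or treated replicate 2 or 3.

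Several of the largest changes lay outside the lists. HPDL, a mitochondrial dioxygenase-like gene, was at 30.6, 33.3 and 29.1 CPM with vehicle and 10.6, 10.9 and 8.01 CPM with CX-5461 (-1.65 ± 0.14, adjusted p = 1.57e-08). NFE2L3, a transcription factor of the NRF family, was at 28.99, 34.6 and 27.1 CPM with vehicle and 8.10, 12.7 and 15.6 CPM with CX-5461 (-1.32 ± 0.21, adjusted p = 9.83e-05), and CACNA2D3, a calcium channel subunit, at 9.73, 9.56 and 10.2 CPM with vehicle and 4.25, 3.95 and 2.90 CPM with CX-5461 (-1.41 ± 0.21, adjusted p = 3.68e-05). All 3 fell without overlap between the groups. KBTBD11 (-1.31 ± 0.08), TMEM144 (-1.197 ± 0.25), TRIM13 (-1.13 ± 0.09) and DLX1 (-1.11 ± 0.10) fell as well. Of noncoding genes beyond the p53 list, AC005329.1 was at 5.22, 2.16 and 2.96 CPM with vehicle and 11.0, 11.0 and 12.1 CPM with CX-5461 (1.72 ± 0.27, adjusted p = 0.000118). FP671120.4 (1.83 ± 0.58, adjusted p = 0.0423) and ANKRD20A5P (1.56 ± 0.21, adjusted p = 9e-06) have close copies, so reads may be split between them. The pseudogene FAM86C2P (-1.01 ± 0.16, adjusted p = 8.88e-05), NUP50-DT (-1.003 ± 0.18, adjusted p = 0.000336) and AC091057.3 (-0.96 ± 0.23, adjusted p = 0.00582) fell. FP671120.4 was not called without vehicle replicate 2 or 3 or any treated replicate, with DESeq2 or in a fit of the 6 libraries alone (adjusted p up to 0.138). AC091057.3 was not called without vehicle replicate 1 (adjusted p = 0.0504).

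CX-5461 and PMR-116 were set side by side at the same dose and time, each against its own vehicle libraries, as a difference of the 2 effects. The vehicle groups did not differ by a called gene. Of the 20495 genes tested 0 were called by edgeR's quasi-likelihood test, 762 had an unadjusted p under 0.05 (3.72%), DESeq2 called 1, and 126 were called with no filter on low counts. The difference of effects was called for 275 genes (1.34%), 150 with a higher response to CX-5461 (0.732%) and 125 with a lower one (0.61%). With DESeq2 the number was 608 and with no filter on low counts 714, and it was 143 to 172 without CX-5461 vehicle replicate 1 or 3, CX-5461 treated replicate 3, PMR-116 vehicle replicate 2 or 3 or PMR-116 treated replicate 3, and 458 without PMR-116 treated replicate 1. PMR-116 alone called 4939 genes (24.1%), with 11% higher and 13.1% lower. Of the 932 genes that CX-5461 raised, 640 also rose with PMR-116 (68.7%, and 33.5% of its own 1911 rises among these genes), and 7 fell. Of the 1323 that CX-5461 lowered, 1002 also fell with PMR-116 (75.7%, and 39.3% of its 2552 falls), and 3 rose.

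Mitosis genes were among those where the compounds differed. Of the 135 mitosis genes 79 fell and 1 rose with CX-5461, and 28 fell and 7 rose with PMR-116 (median -0.06). The difference itself was called for 39 of them, all lower with CX-5461 and 19 of these among the 28 spindle and cytokinesis genes and 7 among the 13 kinesins. CENPE changed by -1.19 ± 0.12 with CX-5461 and -0.06 ± 0.12 with PMR-116 (difference -1.14 ± 0.17, adjusted p = 0.000874). PLK1 changed by -0.95 ± 0.10 with CX-5461 and -0.36 ± 0.10 with PMR-116 (difference -0.59 ± 0.14, adjusted p = 0.0352, lost without any of 7 of the 12 libraries, adjusted p up to 0.121), and KIF20A by -1.37 ± 0.09 with CX-5461 and -0.23 ± 0.08 with PMR-116 (difference -1.14 ± 0.12, adjusted p = 2.17e-05). The kinesin KIF23 was at -1.05 ± 0.08 with CX-5461 and -0.14 ± 0.08 with PMR-116 (difference -0.92 ± 0.11, adjusted p = 0.00011). Over the 119 p53 genes PMR-116 raised 63 and lowered 7 (median 0.39), and the difference was called for 14, all higher with CX-5461. CDKN1A changed by 3.44 ± 0.10 with CX-5461 and 2.50 ± 0.09 with PMR-116 (difference 0.94 ± 0.13, adjusted p = 0.000359), NECTIN4 by 3.87 ± 0.26 with CX-5461 and 1.198 ± 0.26 with PMR-116 (difference 2.67 ± 0.36, adjusted p = 0.000359) and LIF by 4.31 ± 0.28 with CX-5461 and 2.69 ± 0.26 with PMR-116 (difference 1.62 ± 0.38, adjusted p = 0.0311, lost without any of 7 of the 12 libraries, adjusted p up to 0.097). MDM2 changed by 2.13 ± 0.12 with CX-5461 and 1.198 ± 0.12 with PMR-116, a difference of 0.93 ± 0.16, adjusted p = 0.00255. MYC changed by -1.52 ± 0.09 with CX-5461 and -2.03 ± 0.09 with PMR-116, a difference of 0.51 ± 0.13, adjusted p = 0.0451, and the call was lost without any of 10 of the 12 libraries (adjusted p up to 0.152).

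Among single genes, PIF1 went from 13.2 ± 3.36 to 3.40 ± 1.06 CPM (mean ± SD) with CX-5461 and 14.5 ± 1.88 to 10.2 ± 1.67 CPM with PMR-116 (difference -1.45 ± 0.26, adjusted p = 0.00356). SLFN5, a gene of the Schlafen family, went from 6.30 ± 1.53 to 6.42 ± 0.295 CPM (mean ± SD) with CX-5461 and 4.83 ± 0.644 to 14.6 ± 3.09 CPM with PMR-116 (difference -1.57 ± 0.29, adjusted p = 0.00408), being called higher with PMR-116 and not called with CX-5461. CAMSAP2, which binds microtubule minus ends, went from 1.97 ± 0.733 to 3.89 ± 2.17 CPM (mean ± SD) with CX-5461 and 3.55 ± 0.456 to 1.57 ± 0.159 CPM with PMR-116 (difference 2.14 ± 0.50, adjusted p = 0.031). CYGB (1.66 ± 0.42, adjusted p = 0.0459) and Z92544.1 (2.12 ± 0.44, adjusted p = 0.0132) were further cases of a higher response to CX-5461, and GPR83 (-1.61 ± 0.34, adjusted p = 0.0159), ZNNT1 (-1.58 ± 0.33, adjusted p = 0.0159) and KCND1 (-1.48 ± 0.31, adjusted p = 0.015) of a lower response to CX-5461 than to PMR-116. Leaving out 1 library at a time ended the call of CAMSAP2 for 8 of the 12 libraries (adjusted p up to 0.101), CYGB for 8 of the 12 libraries (adjusted p up to 0.145), GPR83 for 3 of the 12 libraries (adjusted p up to 0.0683), ZNNT1 for 2 of the 12 libraries (adjusted p up to 0.0605) and KCND1 for 1 of the 12 libraries (adjusted p up to 0.0626).

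**Figure D5:**
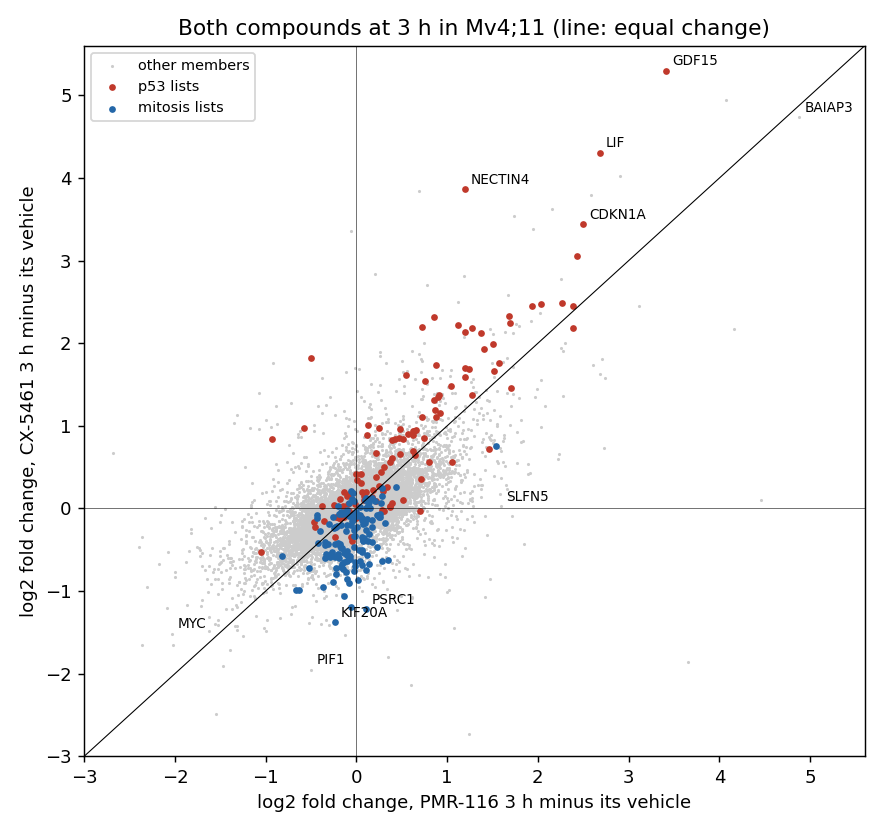
Log2 difference from vehicle at 3 h with PMR-116 (horizontal axis) and with CX-5461 (vertical axis) for the 14106 genes, with the p53 lists in red, the mitosis lists in blue and a diagonal where both differences would be equal. Many mitosis genes lie below the diagonal, such as KIF20A at -1.37 with CX-5461 and -0.23 with PMR-116, and 9 genes lie outside the axes drawn.

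At 12 h CX-5461 called 6430 of 20495 genes (31.4%), 3042 higher (14.8%) and 3388 lower (16.5%), and the 12 h effect differed from the 3 h effect for 3430 (16.7%), 1555 higher (7.59%) and 1875 lower (9.15%). Of the 932 early rises 477 (51.2%) were also called higher at 12 h and 53 lower, and of the 1323 early falls 676 (51.1%) were also called lower and 110 higher. Replication genes set the times apart. They numbered 4 higher and 6 lower of 58 at 3 h and 0 higher and 57 lower at 12 h (median -0.96), and the difference was called for 54, all lower at 12 h. Of the 135 mitosis genes 123 were lower at 12 h (median -0.60), with the difference called lower for 48 and higher for 11. MCM4 changed by -0.40 ± 0.10 at 3 h and -1.62 ± 0.10 at 12 h (difference -1.21 ± 0.14, adjusted p = 1.74e-06). CENPE changed by -1.19 ± 0.12 and -0.77 ± 0.12 (difference 0.42 ± 0.17, adjusted p = 0.1, or 0.0317 with the replicate numbers as a block), and PLK1 by -0.95 ± 0.10 and -0.61 ± 0.10 (difference 0.34 ± 0.14, adjusted p = 0.108).

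The p53 lists had 76 genes higher and 9 lower of 119 at 12 h, and the difference from 3 h was called lower for 39 and higher for 13. CDKN1A went from 3.44 ± 0.10 at 3 h to 2.23 ± 0.09 at 12 h (difference -1.21 ± 0.13, adjusted p = 5.62e-07), and BAIAP3 from 4.74 ± 0.63 to 0.40 ± 0.72 (difference -4.34 ± 0.99, adjusted p = 0.00329). BAIAP3 stood at 5.63 ± 3.13 CPM (mean ± SD) in the treated libraries at 3 h and 0.339 ± 0.138 CPM at 12 h. DDIT4, an inhibitor of mTORC1, had 1.70 ± 0.22 and -0.49 ± 0.21 (difference -2.19 ± 0.30, adjusted p = 1.83e-05), but its vehicle level was 10.3 ± 0.640 CPM at 3 h and 31.3 ± 12.4 CPM at 12 h. MYC went from -1.52 ± 0.09 to -0.56 ± 0.09 (difference 0.96 ± 0.13, adjusted p = 1.2e-05). The histone gene H2AC6 went from 2.29 ± 0.800 to 15.8 ± 5.59 CPM at 12 h, with -0.63 ± 0.37 at 3 h and 2.76 ± 0.31 at 12 h (difference 3.39 ± 0.49, adjusted p = 2.66e-05), and H4C14 had a difference of 3.04 ± 0.86, adjusted p = 0.0154 (a call lost without 3 h vehicle replicate 3 or treated replicate 2, adjusted p up to 0.0941). UNC13A (4.41 ± 0.45, adjusted p = 3.76e-07) stood at 0.844 ± 0.433 CPM in the treated libraries at 3 h and 18.6 ± 1.75 CPM at 12 h. AC006064.6 had a difference of 4.70 ± 1.12, adjusted p = 0.00451, but it stood at 15.2 ± 6.86 and 17.998 ± 8.54 CPM in the treated libraries and at 22.8 ± 8.42 and 1.02 ± 0.411 CPM in the vehicle libraries of the 2 times. The response was lower at 12 h for PHGDH, the first enzyme of serine synthesis (-2.68 ± 0.23, adjusted p = 4.53e-08), the pseudogene DHFRP1 (-2.10 ± 0.34, adjusted p = 0.000111) and AK4 (-2.16 ± 0.54, adjusted p = 0.00641), whose vehicle level was 2.50 ± 0.222 CPM at 3 h and 6.72 ± 2.81 CPM at 12 h. For SFT2D3, with 0 counts in all treated libraries at 3 h and in 2 of the 3 vehicle libraries, the difference was called but rests on libraries at 0, and it was 0.05 without the vehicle replicate that held counts. The call of SFT2D3 was lost without any of 9 of the 12 libraries.

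In KG-1 the same dose and time called 537 of 23759 genes in a joint fit of both lines (2.26%), 263 higher (1.11%) and 274 lower (1.15%). The effect in Mv4;11 differed from that in KG-1 for 730 genes (3.07%), 373 higher (1.57%) and 357 lower (1.5%) in Mv4;11, and for 1220 with the replicate numbers as a block. Of the 932 genes higher in Mv4;11, 61 were higher in KG-1 (6.55%, and 24.5% of the 249 rises there), and of the 1323 lower, 119 were lower in KG-1 (8.99%, and 48.6% of the 245 falls there). Of the 119 p53 genes 5 rose and 3 fell in KG-1, and the difference was called for 48, all higher in Mv4;11. Of 135 mitosis genes 17 fell and 2 rose in KG-1, and the difference was called for 41, all lower in Mv4;11. Line and batch cannot be told apart in these differences.

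CDKN1A was at 2.09, 2.18, 3.15 and 2.75 CPM in the 4 KG-1 vehicle libraries and 3.97, 3.16, 3.97 and 4.40 CPM in the 4 treated ones. Its log2 difference was 0.61 ± 0.19 in KG-1 (not called, adjusted p = 0.0822) and 3.46 ± 0.17 in Mv4;11 in the joint fit (difference 2.85 ± 0.25, adjusted p = 8.71e-12). All KG-1 libraries lay far below the vehicle libraries of Mv4;11 in this gene. MDM2 changed by -0.14 ± 0.08 in KG-1 (difference 2.29 ± 0.13, adjusted p = 4.55e-18) and MYC by -0.10 ± 0.09 (difference -1.40 ± 0.14, adjusted p = 3.35e-10). CENPE changed by -0.60 ± 0.14 (difference -0.58 ± 0.21, adjusted p = 0.132, or 0.0477 with DESeq2's Wald test). Within KG-1 the change of CENPE was called (adjusted p = 0.00855), and those of MDM2 and MYC were not (adjusted p = 0.519 and 0.725). LIF stood at 22.8 ± 3.61 CPM (mean ± SD, n = 4) in KG-1 vehicle libraries and 25.2 ± 1.89 CPM in treated ones, against 0.644 ± 0.337 and 13.04 ± 2.31 CPM (n = 3) in Mv4;11 (difference 4.18 ± 0.30, adjusted p = 8.19e-15). SLC16A7, a lactate transporter expressed in both lines, had a difference of -1.54 ± 0.44 (adjusted p = 0.0409), a call lost without any of 8 of the 14 libraries (adjusted p up to 0.174). Most other genes with the largest differences between the lines, SPRED1, PDE6B, SH3BP4, PHLDB2, GOLM1, SHISA7, PDCD6IPP2 and SFT2D3, had libraries at or near 0 CPM in 1 of the lines, so their fitted differences rest on libraries at or near 0. Leaving out 1 library at a time ended the call of SHISA7 for 10 of the 14 libraries (adjusted p up to 0.196), PHLDB2 for 8 of the 14 libraries (adjusted p up to 0.419), GOLM1 for 7 of the 14 libraries (adjusted p up to 0.102), PDCD6IPP2 for 5 of the 14 libraries (adjusted p up to 0.0893) and SH3BP4 for 3 of the 14 libraries (adjusted p up to 0.0895).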

How the data were processed

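RNA was isolated with a column kit and made into libraries with a stranded poly(A) kit, per the labels' protocols. The authors deposited expected counts per gene symbol, 1 table for each cell line. Salmon 1.5.2, DESeq2 and GRCh38.p13 are named in the submitters' processing notes. Neither the annotation release nor the strand setting is given in the sources used here. The deposited expected counts were not whole for 99.98% of the values above 0 and were rounded to whole numbers. In the tables, 24 columns that no label names were not used.

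Counts were fitted with edgeR 4.0.16 (TMM scaling, filterByExpr with a minimum count of 10 and a minimum total of 15, quasi-likelihood test) over the 24 Mv4;11 libraries in 8 groups, without a replicate term. P-values were adjusted over all genes tested by the Benjamini-Hochberg method, and an adjusted p under 0.05 made a call. Each standard error is the log2 difference divided by the square root of F. The KG-1 effect and its difference from Mv4;11 came from a joint fit of 56 libraries in 16 groups over 23759 genes. DESeq2 1.42.0, limma 3.58.1 and R 4.3.3 served the alternatives, which were other scalings, other filters, DESeq2's Wald test, a fit of the 6 libraries alone, the replicate number as a block, and each library left out. The block together with the 6 libraries alone was added after seeing the data. Counts were simulated for all 24 Mv4;11 libraries from the mean levels of the 3 h CX-5461 vehicle group, with no replicate effect. In the 3 h CX-5461 treated group 67, 67 and 66 genes were changed by 1.5, 2 and 4-fold, fewer than were called in the data. The test recovered 70.1%, 83.6% and 100% of them, with 10 false calls in the 19197 genes of that test.

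Deviations from the group means correlated between same-numbered libraries with r of 0.247, 0.148 and 0.148, against -0.133 to -0.010 between other numbers. Centring each group on its own mean pushes the second values down as the first rise, so this contrast is partly built in. The labels do not say that the replicate numbers pair the samples.

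The genes and lists were chosen with earlier results of these data known. Named genes were those among the 15 largest rises and 15 largest falls of protein-coding genes and the 5 and 5 of noncoding genes that were called, reached 5 CPM in the higher group and had no overlap between groups, 12 genes of the p53, MYC, polymerase I, topoisomerase and FLT3 systems, the 4 smallest p-values of each list, and the 5 largest differences of effects each way. Some genes that the rule names are not reported here. Other genes named within a list were chosen after their values were seen. Promoters, miRNAs and their positions are from RefSeq tables of GRCh38.p14, whose coordinates were not joined to the counts.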

Additional observations from a re-analysis of the deposited data

Results flagged for a closer look

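The effect of CX-5461 differed from that of PMR-116 at 3 h for 275 genes, the 12 h effect from the 3 h effect for 3430, and the effect in Mv4;11 from that in KG-1 for 730, each by a test of the difference itself (edgeR's quasi-likelihood test, adjusted p under 0.05). The values below are log2 differences of effects, the 5 largest each way.

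Between the compounds, the response was higher with CX-5461 for NECTIN4 (2.67), CAMSAP2 (2.14), Z92544.1 (2.12), CYGB (1.66) and LIF (1.62). It was lower for GPR83 (-1.61), ZNNT1 (-1.58), SLFN5 (-1.57), KCND1 (-1.48) and PIF1 (-1.45).

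Between the times, it was higher at 12 h for SFT2D3 (8.50), AC006064.6 (4.70), UNC13A (4.41), H2AC6 (3.39) and H4C14 (3.04), and lower at 12 h for BAIAP3 (-4.34), PHGDH (-2.68), DDIT4 (-2.19), AK4 (-2.16) and DHFRP1 (-2.10).

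Between the lines, it was higher in Mv4;11 for SPRED1 (6.63), PDE6B (5.78), GOLM1 (4.95), SH3BP4 (4.63) and LIF (4.18), and lower for SFT2D3 (-8.12), SHISA7 (-3.03), PHLDB2 (-1.93), PDCD6IPP2 (-1.81) and SLC16A7 (-1.54). Cell line and batch cannot be told apart here.

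In KG-1, vehicle replicate 3 stood apart from the other 3 vehicle libraries in SHISA7, at 0.0354 CPM while the other 3 were at 0, so that the gap rests on a level near 0. For normally spread values, chance alone gives about 1 such library in 20 groups looked at. That rate does not apply here, because any count in 1 library passes the cut once the others are at 0.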

How the results depend on the processing

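Each group of the 3 h comparison held 3 libraries. Over the alternatives that kept all libraries, the 3 h comparison called 1961 to 3349 genes beside 2390, the first in a fit of the 6 libraries alone and the second in that fit with a replicate block. With the replicate block over all libraries it called 2705, of which 2368 were among the 2390. Leaving out 1 library gave 1573 to 1948, with 718 to 925 higher and 855 to 1061 lower. Without the filter on low counts, 1295 genes were higher and 1286 lower. The difference of effects between the compounds was called for 714 genes without the filter and 608 with DESeq2, beside 275, and for 143 to 458 with 1 library left out. Between the vehicle groups of the 2 compounds, 126 genes were called without the filter, 1 with DESeq2 and 1 with the replicate block, beside 0, and 0 in each fit that left out 1 library. The line difference was called for 1154 genes with DESeq2 and 1220 with the replicate block, beside 730, and for 538 to 825 with 1 library left out. The difference between the times was called for 2798 to 3474 with 1 library left out. The line difference of SFT2D3, -8.12 with all libraries, lay between -8.74 and 0.56 with 1 library left out and was positive without Mv4;11 vehicle replicate 1. Beyond the values given beside the results, the replicate block over all libraries changed no call of a named gene and moved no list count by over 1.5 times. In the fit of the 6 libraries with the block, 24 list counts moved by more than that. The cytosolic ribosomal proteins then counted 18 rises beside 0, and the ATF4 list counted 25 falls beside 13, the MYC targets 22 beside 13, the cholesterol list 9 beside 1 and the replication list 10 beside 6. The cause of these differences was not tested. Total counts of 30554698 or more per library left genes under 1 CPM resting on few counts.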
